A study of Homo sapiens with 6 samples.

Results

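The 10 genes EXOSC1 to EXOSC10 encode subunits of the RNA exosome. They were taken by gene symbol from a table of 61806 genes, each symbol matched 1 row, and all 10 were among the 16834 genes with enough counts to be tested. The rule uses the symbols and no measured value, although earlier results of these data were known when the set was proposed. RNA was sequenced from the 293T line, an established cell line from human embryonic kidney, after lipid transfection with a plasmid labelled GFP (3 libraries) or a plasmid labelled GFP-812 (3 libraries). GFP is the green fluorescent protein of jellyfish. Both groups are the same line and both received a plasmid and the lipid, so untransfected cells are not part of the comparison. The labels do not explain the number in GFP-812, the series title concerns truncated NEK1 and ribosomal RNA, and the share of cells that took up a plasmid is not given in the sources used here.

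The exosome is the main machine that degrades RNA from its 3′ end. In human cells 9 subunits without nuclease activity build a barrel: a ring of EXOSC4 to EXOSC9, which resemble bacterial RNase PH, and a cap of EXOSC1, EXOSC2 and EXOSC3, which carry RNA-binding domains. RNA is threaded through the barrel to the nuclease DIS3 in the nucleus or its relative DIS3L in the cytoplasm. EXOSC10 is a separate nuclease bound at the cap and enriched in the nucleolus. In the nucleolus the complex trims precursors of ribosomal RNA and destroys the spacers cut from them, in the nucleoplasm it removes non-coding transcripts, and in the cytoplasm it degrades messenger RNA. Variants of EXOSC3, EXOSC8 and EXOSC9 are known causes of inherited disease of the cerebellum and motor neurons. The libraries were made from poly(A) RNA, so the ribosomal RNA precursors that the complex acts on were not measured, and the values below are messenger RNA levels of its subunits. Levels are in FPKM, fragments per kilobase of exon scaled to the library total, and differences are log2 fold changes of GFP-812 over GFP fitted to the counts. In bulk RNA, fewer cells making a transcript and less of it per cell cannot be told apart.

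Library totals ran from 14255148 to 17613814 counts. NEK1, which checks the labels, took 131045 to 142064 counts in the GFP-812 libraries and 1007 to 1050 in the GFP libraries. Of the 8 markers fixed for the line and for epithelium, the neurofilament genes NEFL and NEFM and the keratins KRT8 and KRT18 stood at 8.95 to 71.92 FPKM. The others were low: the epithelial genes EPCAM and CDH1 stayed between 0.53 and 1.19 FPKM, KRT19 between 0.09 and 0.27 FPKM and PAX2 between 0.34 and 0.7 FPKM. The summed level of the 8 markers was 122.2 to 135.4 FPKM in GFP-812 libraries and 106.1 to 117.8 FPKM in GFP libraries. NEFL and NEFM rose (edgeR log2 fold changes 0.17 and 0.30, adjusted p = 0.0372 and 1.46e-05). Their part in the results below was not tested. Of the 14 markers of blood, endothelium, fibroblasts, muscle and liver, none lacked counts in all 6 libraries, PTPRC was at 0 FPKM, and CD3E, PECAM1, VWF, COL1A2, DCN and MYH7 did not exceed 0.02 FPKM. COL1A1 had the highest level of these, with a maximum of 1.76 FPKM.

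None of the 10 exosome genes passed the test between GFP-812 and GFP cells. By edgeR's quasi-likelihood test, 0 of 10 rose and 0 fell at an adjusted p under 0.05, where 3.84% of all genes tested were called, 1.18% as higher and 2.67% as lower in GFP-812 cells. Adjusted p-values ran from 0.165 for EXOSC1 to 0.97 for EXOSC10. At an unadjusted p under 0.05 the count was 1 of 10 (EXOSC1), beside 16.1% of all genes tested. limma-voom also called 0 of 10, with 669 calls over all genes. DESeq2 called 0 of the 7 members to which it gave an adjusted p (not EXOSC1, EXOSC4 or EXOSC5). It made 481 calls among the 5754 genes with an adjusted p. limma on log2(FPKM + 1) called 4 of 12984 genes in all, so its count of 0 members carries little weight. Of the fitted log2 fold changes 4 lay above 0 and 6 below, with a median of -0.01, beside a median of 0.01 over all genes tested. No member had FPKM that separated the groups, whereas 20.1% of all genes tested did. A count of 0 of 10 calls is near the background share and is not a result particular to the exosome.

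**Figure D1:**
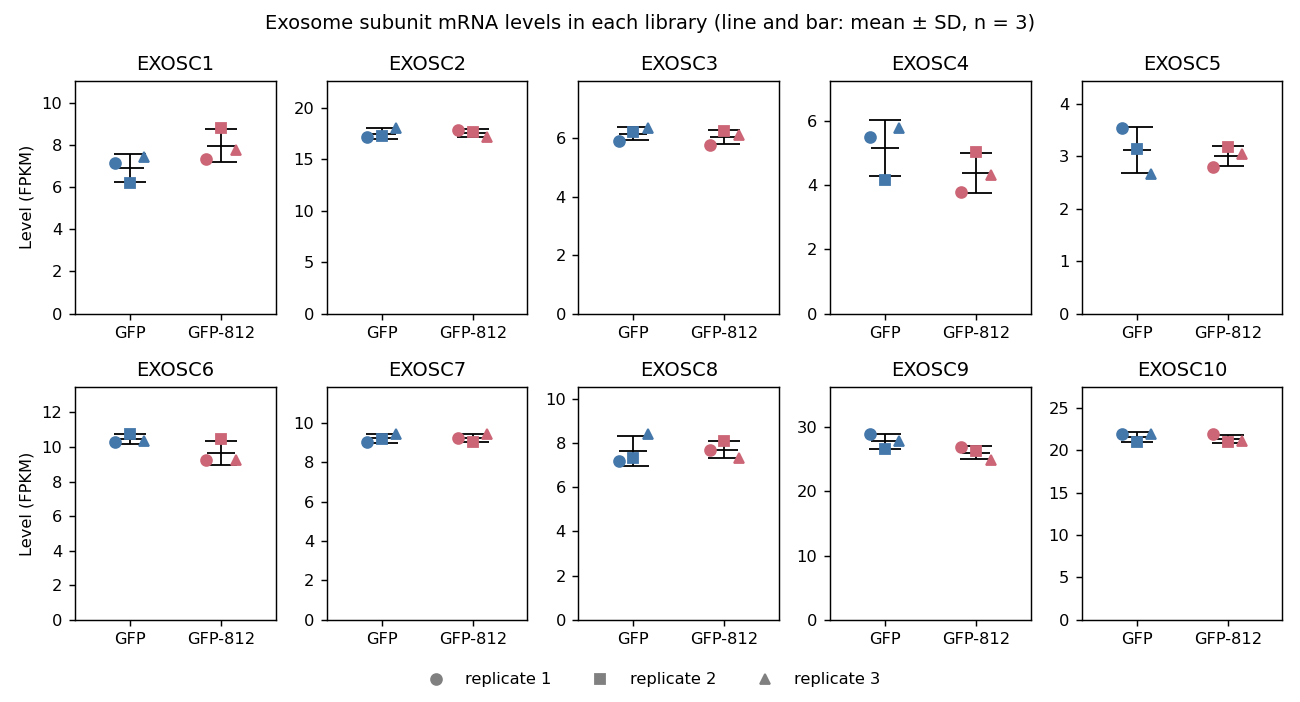
Level in FPKM (vertical axes, from 0) of each exosome subunit in the 3 GFP (blue) and 3 GFP-812 (red) libraries; marker shape gives the replicate, and line and bar give mean ± SD. The groups overlap in all 10 panels, and EXOSC1, EXOSC4 and EXOSC5 have the widest scatter.

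Among the cap subunits, EXOSC1 had the largest fitted difference of the 10 members upward, and EXOSC2 and EXOSC3 had differences near 0. EXOSC1 (ENSG00000171311, hg38 chromosome 10, 97435909 to 97446017, minus strand), the Csl4 homologue, stood at 7.31, 8.82 and 7.76 FPKM in the GFP-812 libraries and at 7.13, 6.18 and 7.41 FPKM in the GFP libraries, here and below in the order of replicates 1 to 3. GFP-812 replicate 2 was the highest library and GFP replicate 2 the lowest, and GFP-812 replicate 1 lay under GFP replicate 3, so the groups overlapped. The means were 7.96 ± 0.775 and 6.91 ± 0.645 FPKM (SD, n = 3 each). The log2 fold change was 0.22 (SE 0.0873, 95% interval 0.04 to 0.39, edgeR adjusted p = 0.165), or 16.4%, which did not pass after adjustment although the unadjusted interval lay above 0. Leaving out replicate 2 of GFP-812 gave 0.14 (adjusted p = 0.591), leaving out replicate 2 of GFP also gave 0.14 (0.517), and leaving out replicate 3 of GFP gave 0.27 (0.0681).

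EXOSC2 (ENSG00000130713, chromosome 9, 130693721 to 130707288, plus strand), the Rrp4 homologue, stood at 17.89, 17.61 and 17.14 FPKM in the GFP-812 libraries and at 17.14, 17.26 and 18.08 FPKM in the GFP libraries. The lowest GFP-812 and the lowest GFP library had the same value. Its log2 fold change was 0.02, with a 95% interval from -0.07 to 0.11. EXOSC3 (ENSG00000107371, chromosome 9, 37759234 to 37832117, minus strand), the Rrp40 homologue, stood at 5.77, 6.24 and 6.09 FPKM in GFP-812 libraries and at 5.90, 6.20 and 6.36 FPKM in GFP libraries. The highest and the lowest library belonged to different groups, and the other values were interleaved. Its log2 fold change was -0.02 (95% interval -0.15 to 0.12).

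The 6 ring subunits gave fitted differences from -0.22 to 0.02, of which 4 lay below 0, and none passed. EXOSC9 (ENSG00000123737, chromosome 4, 121801318 to 121817021, plus strand), the Rrp45 homologue, was the ring gene with the smallest p. It stood at 26.85, 26.29 and 24.87 FPKM in GFP-812 libraries and at 28.95, 26.60 and 27.83 FPKM in GFP libraries. Only GFP replicate 2 fell within the range of the GFP-812 libraries. The means were 26.0 ± 1.02 and 27.8 ± 1.18 FPKM (SD, n = 3 each). The fitted log2 fold change was -0.08 (SE 0.0483, 95% interval -0.18 to 0.01, edgeR adjusted p = 0.394), and it was -0.05 when replicate 3 of GFP-812 was left out (adjusted p = 0.795). EXOSC6 (ENSG00000223496, chromosome 16, 70246778 to 70251940, minus strand), the Mtr3 homologue and the member with a single exon, stood at 9.25, 10.47 and 9.24 FPKM in GFP-812 libraries and at 10.28, 10.77 and 10.32 FPKM in GFP libraries. GFP-812 replicates 1 and 3 lay under all GFP libraries, and GFP-812 replicate 2 lay among them. The log2 fold change was -0.10 (SE 0.064, 95% interval -0.23 to 0.03, edgeR adjusted p = 0.443), and it was -0.16 without GFP-812 replicate 2 (adjusted p = 0.333) and -0.07 without GFP-812 replicate 3 (adjusted p = 0.779).

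EXOSC7 (ENSG00000075914, chromosome 3, 44975241 to 45036066, plus strand), the Rrp42 homologue, was the most even member. It stood at 9.23, 9.06 and 9.43 FPKM in GFP-812 libraries and at 9.03, 9.19 and 9.46 FPKM in GFP libraries, so that the highest library was 1.05 times the lowest. Its log2 fold change was 0.02 (95% interval -0.12 to 0.15). EXOSC8 (ENSG00000120699, chromosome 13, 36998816 to 37025881, plus strand), the Rrp43 homologue, stood at 7.67, 8.11 and 7.33 FPKM in GFP-812 libraries and at 7.17, 7.33 and 8.42 FPKM in GFP libraries. GFP replicate 3 was the highest of all 6 and GFP replicate 1 the lowest. The log2 fold change of EXOSC8 was 0.02 (95% interval -0.09 to 0.13), and it was 0.10 without GFP replicate 3, at an edgeR adjusted p = 0.308.

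EXOSC4 and EXOSC5 had the fewest counts and the widest intervals. EXOSC4 (ENSG00000178896, chromosome 8, 144078648 to 144080648, plus strand), the Rrp41 homologue, had 75, 109 and 105 counts in GFP-812 libraries and 123, 93 and 129 counts in GFP libraries, or 3.80, 5.04 and 4.30 FPKM and 5.50, 4.17 and 5.79 FPKM. GFP replicate 2 lay within the GFP-812 range, and the other GFP libraries lay above it. The log2 fold change was -0.22 (SE 0.165, edgeR adjusted p = 0.542), and its 95% interval ran from -0.55 to 0.11, or from -31.7% to 7.91%. Leaving out 1 library at a time moved it between -0.36 (without GFP replicate 2) and -0.13 (without GFP replicate 3). EXOSC5 (ENSG00000077348, chromosome 19, 41386371 to 41397362, minus strand), the Rrp46 homologue, stood at 2.80, 3.17 and 3.04 FPKM in GFP-812 libraries and at 3.55, 3.15 and 2.67 FPKM in GFP libraries. The 3 GFP libraries spanned the whole GFP-812 range. Its log2 fold change was -0.04 (95% interval -0.30 to 0.21), and it moved to 0.07 when replicate 1 of GFP was left out and to -0.14 when replicate 3 was.

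The nuclease subunit EXOSC10 (ENSG00000171824, chromosome 1, 11066618 to 11099869, minus strand), the Rrp6 homologue, had one of the narrowest intervals. It stood at 21.92, 21.03 and 21.07 FPKM in GFP-812 libraries and at 21.95, 20.93 and 21.95 FPKM in GFP libraries, and each group held both higher and lower values. The log2 fold change was -0.01 (SE 0.0468), and its 95% interval ran from -6.69% to 6.27%. The catalytic partners outside the 10 members, DIS3 and DIS3L, did not pass either. DIS3 stood at 26.77, 27.88 and 26.60 FPKM in GFP-812 libraries and at 29.39, 29.08 and 27.44 FPKM in GFP libraries (log2 fold change -0.07, 95% interval -0.15 to 0.01, edgeR adjusted p = 0.413). DIS3L stood at 11.25, 11.21 and 11.32 FPKM and at 11.55, 12.18 and 11.81 FPKM. The DIS3L groups did not overlap, as for 20.1% of all genes tested, and its log2 fold change was -0.06 (95% interval -0.18 to 0.06, edgeR adjusted p = 0.661).

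**Figure D2:**
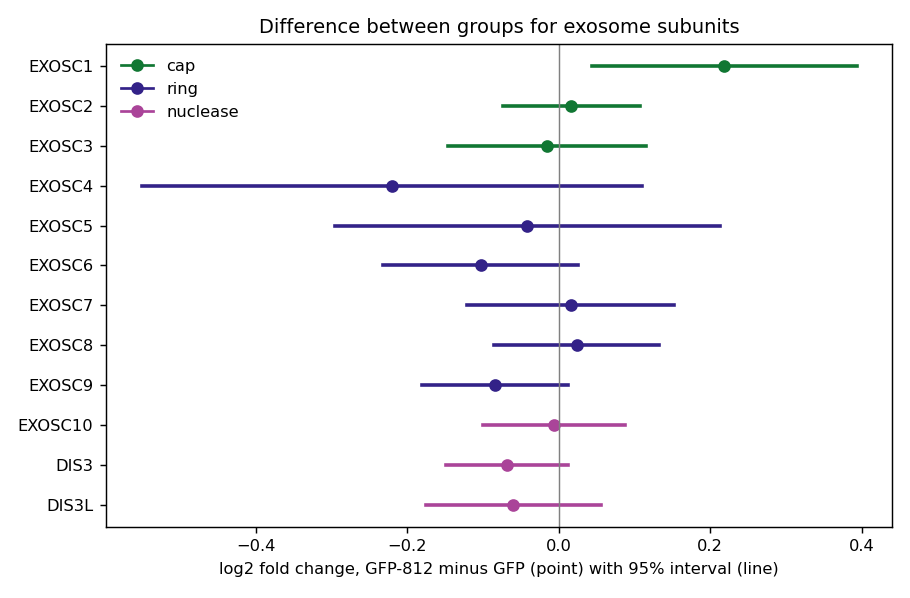
Fitted log2 fold change (GFP-812 minus GFP, horizontal axis) with its unadjusted 95% interval from edgeR for the 10 members and the nucleases DIS3 and DIS3L, coloured by their place in the complex. The interval of EXOSC1 alone lies clear of 0, and that of EXOSC4 is the widest.

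The observed coefficient of variation between libraries lay above that of counting error in both groups for EXOSC1, EXOSC2, EXOSC3, EXOSC4, EXOSC8, EXOSC9 and EXOSC10. For EXOSC7 it lay below in both. Each coefficient is an estimate from 3 libraries and was not tested against counting error, so small differences either way cannot be interpreted. EXOSC5 exceeded counting error in the GFP group only and EXOSC6 in the GFP-812 group only. The excess was small for EXOSC3 (3.95% and 3.8% within GFP-812 and GFP, against 3.66%) and for EXOSC10 (2.35% and 2.71%, against 2.21%). Counting error alone gives a coefficient of variation of 9.73% at the mean of 105.7 counts of EXOSC4 and of 2.04% at the mean of 2402 counts of EXOSC2. The observed values were 14.2% and 16.8% within GFP-812 and GFP for EXOSC4, and 2.16% and 2.93% for EXOSC2. EXOSC1 varied by 9.74% and 9.32% where counting error gives 4.85%, and EXOSC8 by 5.08% and 8.91% where it gives 2.5%. EXOSC9 varied by 3.94% and 4.22% at a counting error of 2.22%. EXOSC7 varied by 2% and 2.34% at a counting error of 3.91%. The 10 genes together took 0.0687%, 0.07% and 0.0668% of all counts in the GFP-812 libraries and 0.0694%, 0.0678% and 0.0717% in the GFP libraries. The highest share belonged to GFP replicate 3 and the lowest to GFP-812 replicate 3, with the other 4 libraries interleaved. In GFP replicate 3, 8 of 10 members were above their own mean over the 6 libraries, against 7 in GFP-812 replicate 2 and 3 in GFP-812 replicate 3 and GFP replicate 2.

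The subunits of the barrel are built in equal numbers into the complex, and their messenger RNA levels were unequal. Ordered by mean FPKM over the 6 libraries, EXOSC9 (26.9 ± 1.39, SD, n = 6) came first, followed by EXOSC10 (21.5), EXOSC2 (17.5), EXOSC6 (10.1), EXOSC7 (9.23), EXOSC8 (7.67), EXOSC1 (7.43), EXOSC3 (6.09), EXOSC4 (4.77) and EXOSC5 (3.06 ± 0.31). The mean of EXOSC9 was 8.78 times that of EXOSC5, and the ratio ran from 8.15 in GFP replicate 1 to 10.4 in GFP replicate 3. Neighbours whose ranges over libraries overlapped were EXOSC6 and EXOSC7, EXOSC8 and EXOSC1, EXOSC1 and EXOSC3, and EXOSC3 and EXOSC4. The other 5 neighbouring pairs were in the same order in 6 of 6 libraries with no overlap. The order stayed the same when any single library was left out.

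That order depended on the length behind the FPKM. The authors' FPKM divide by the exonic size in the table, which for most members was several times the length of the principal messenger RNA in GENCODE 29 (the transcript marked principal by APPRIS, 1 for each member). The table gives EXOSC8 13092 exonic bases against a principal transcript of 1198 bases, a ratio of 10.9. For EXOSC6 the lengths were 5163 and 5153 bases, and the other 8 ratios ran from 1.56 (EXOSC4) to 4.24 (EXOSC3). Of the 11 EXOSC8 transcripts in GENCODE 29, 2 are of the protein-coding type, and of the 11 of EXOSC7, 1 is. Which annotation release gave the exonic sizes is not stated, so these transcripts may differ from those behind the sizes.

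Dividing by the principal transcript length instead put EXOSC8 level with EXOSC9 and moved EXOSC6 near the bottom. On that scale, which assumes that all counts of a gene come from its principal transcript, EXOSC9 stood at 85.5 ± 4.41 and EXOSC8 at 83.8 ± 5.44 (SD, n = 6), and EXOSC9 was the higher in 3 of 6 libraries. EXOSC2 followed at 73.8, EXOSC10 at 45.8, EXOSC7 at 38.8, EXOSC1 at 28.8, EXOSC3 at 25.8, EXOSC5 at 10.2, EXOSC6 at 10.1 and EXOSC4 at 7.45. Only 3 of 10 members (EXOSC9, EXOSC2 and EXOSC7) kept the place they had by FPKM. The mean of EXOSC9 was 11.5 times that of EXOSC4, the lowest member here. EXOSC4 lay above EXOSC5 by FPKM and below it on this scale, so the order of that pair also turned with the length used. Differences between GFP-812 and GFP do not depend on this length, since it cancels within a gene.

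**Figure D3:**
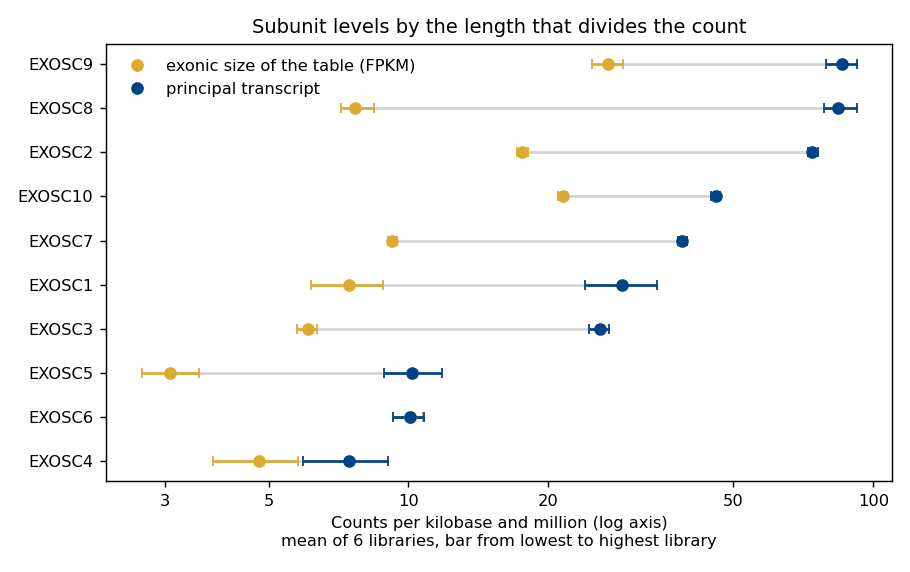
Mean level over 6 libraries (log axis, counts per kilobase scaled to the library total as in FPKM; bars from the lowest to the highest library) with the count divided by the exonic size of the table, as in the deposited FPKM (yellow), or by the principal transcript (blue). EXOSC8 moves from 7.67 to 83.8, whereas the EXOSC6 points coincide.

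Several members share annotated ground with other genes. By their coordinates 7 of 10 members overlap at least 1 other gene span: EXOSC3 overlaps DCAF10, TRMT10B and 2 genes without a symbol, EXOSC7 overlaps ZDHHC3, CLEC3B and RNU5B-3P, EXOSC8 overlaps SUPT20H and ALG5, and EXOSC9 overlaps the end of CCNA2, the cyclin of S phase, by 578 bases. EXOSC4 overlaps MIR6847 and a gene without a symbol, EXOSC5 a gene without a symbol, and EXOSC10 its antisense gene EXOSC10-AS1 and a gene without a symbol. EXOSC1, EXOSC2 and EXOSC6 overlap none. Of these 15 genes 10 were tested and 0 passed in edgeR, a count near the 3.84% of all genes tested that were called. The best covered were CCNA2 (mean 2940 counts, log2 fold change -0.04), DCAF10 (1616 counts, -0.12), ZDHHC3 (1321 counts, -0.05), SUPT20H (900.7 counts, -0.03) and ALG5 (886.8 counts, -0.01). EXOSC10-AS1 held 1 to 9 counts per library against 1872 to 2223 for EXOSC10. Whether the counting used strand is not given in the sources used here, so reads in shared exons cannot be assigned with certainty.

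The promoters of the members were searched for short motifs of widely used promoter factors, chosen after the sequences were seen. RefSeq windows on GRCh38.p14, from 250 bases before to 50 bases after the start, were matched by symbol for 8 of 10 members, and EXOSC1 and EXOSC4 were not matched. The first listed start was used for each gene. Their GC content had a median of 61.5% (52.3% to 76%), beside 58.3% over 27305 promoters. The windows of the 3 members with the highest deposited FPKM are printed to show these letters, with capitals for the NRF1 core TGCGCA and for the YY1 core ATGGCG on either strand. They lie at chr4:121801073-121801372 (plus strand) for EXOSC9, chr1:11099820-11100119 (minus strand) for EXOSC10 and chr9:130693510-130693809 (plus strand) for EXOSC2.
EXOSC9: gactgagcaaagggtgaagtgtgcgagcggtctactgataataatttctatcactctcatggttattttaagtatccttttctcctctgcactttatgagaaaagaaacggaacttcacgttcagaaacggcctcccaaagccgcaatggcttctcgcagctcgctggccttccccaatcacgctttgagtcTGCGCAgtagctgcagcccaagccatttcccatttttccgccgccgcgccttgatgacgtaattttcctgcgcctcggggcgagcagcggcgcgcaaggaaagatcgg
EXOSC10: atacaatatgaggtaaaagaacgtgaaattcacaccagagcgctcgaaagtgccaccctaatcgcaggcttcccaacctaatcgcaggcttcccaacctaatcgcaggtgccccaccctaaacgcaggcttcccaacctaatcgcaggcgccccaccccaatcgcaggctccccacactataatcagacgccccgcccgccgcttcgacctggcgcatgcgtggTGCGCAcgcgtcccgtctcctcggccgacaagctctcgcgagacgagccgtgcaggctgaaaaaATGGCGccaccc
EXOSC2: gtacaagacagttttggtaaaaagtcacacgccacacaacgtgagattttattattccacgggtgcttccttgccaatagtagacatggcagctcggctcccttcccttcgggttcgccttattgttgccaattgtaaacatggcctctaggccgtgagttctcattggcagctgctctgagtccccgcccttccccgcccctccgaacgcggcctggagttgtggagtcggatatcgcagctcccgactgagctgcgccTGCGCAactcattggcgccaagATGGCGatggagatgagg

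TGCGCA, the core of the motif of NRF1, a factor of housekeeping and mitochondrial genes, was found in 5 of 8 windows (EXOSC2, EXOSC5, EXOSC6, EXOSC9 and EXOSC10), beside 8.42% of all promoters. The matches began at -58, -50, -47 and -26 bases from the start in EXOSC9, EXOSC5, EXOSC6 and EXOSC10 and at 10 bases in EXOSC2. ATGGCG or its complement CGCCAT, the core of the YY1 motif, was found in 6 of 8 (EXOSC2, EXOSC5, EXOSC6, EXOSC7, EXOSC8 and EXOSC10), beside 11% of all promoters. In EXOSC2, EXOSC7, EXOSC8 and EXOSC10 that match holds the start codon of the principal transcript, since an ATG followed by GCG spells the same letters. The other motifs searched, on both strands, were CCGGAA of ETS factors (1 of 8, 17.6% of all), CACGTG of MYC and related factors (1 of 8, EXOSC5; 7.43%), TGACG of CREB factors (4 of 8, 25%), CCAAT (4 of 8, 35.7%) and TATAAA (1 of 8, EXOSC8; 12%). The letters TGCGCA and CACGTG read the same on both strands. These matches describe the letters of the windows and not bound sites, and with 8 genes the shares are coarse.

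Among genes that deliver RNA to the exosome or work beside it, ZCCHC8, ZC3H3, CNOT10 and DCP1A fell in GFP-812 cells. The lists hold 57 genes outside the 10 members, all tested. Of these 0 rose, 4 fell and 53 did not pass, where 2.67% of all genes tested fell. Of the 57 fitted values 39 lay below 0, with a median of -0.06, beside 48.2% and a median of 0.01 over all genes tested. The listed genes all had a mean FPKM above 1. Among the 12563 tested genes with a mean FPKM of 1 or more, 428 fell, 49.8% lay below 0 and the median was 0.0004. The difference between the median of the 57 genes and that of the members was not tested. In 13 of the 57 genes all GFP-812 libraries lay below all GFP libraries in FPKM, and in 1 above. Over all genes tested, 20.1% had groups that did not overlap in either direction. The lists were chosen with earlier results of these data known. Their roles differ: ZCCHC8 and ZC3H3 belong to nuclear adapters that bring RNA to it, CNOT10 to the deadenylase that shortens poly(A) tails, and DCP1A to the decapping machinery of the competing decay route from the 5′ end.

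ZCCHC8 (ENSG00000033030), the scaffold of the nuclear exosome targeting complex, stood at 4.80, 4.85 and 4.56 FPKM in GFP-812 libraries and at 5.84, 6.78 and 5.41 FPKM in GFP libraries. All GFP-812 libraries lay below all GFP libraries. The log2 fold change was -0.33 (SE 0.0688, 95% interval -0.47 to -0.19, edgeR adjusted p = 0.00139), and it was -0.24 without GFP replicate 2 (adjusted p = 0.0532). ZC3H3 (ENSG00000014164), a zinc finger protein linked to the poly(A) tail exosome targeting connection, stood at 2.17, 2.22 and 2.44 FPKM and at 2.95, 3.27 and 3.06 FPKM. The groups did not overlap, but the call was marginal: the log2 fold change was -0.43 (SE 0.13, edgeR adjusted p = 0.0483), and it failed in 11 of 15 alternatives (adjusted p 0.0505 to 0.203), including each of the fits without a library other than GFP replicate 3. The other 8 genes of the nuclear adapter list did not pass. Of these ZC3H18 was furthest from 0, at 6.80, 6.78 and 6.85 FPKM against 7.75, 8.13 and 7.33 FPKM without overlap (log2 fold change -0.17, edgeR adjusted p = 0.0913), followed by NRDE2 at -0.13 (0.464), and TENT4A, TENT4B, ZCCHC7, RBM7, ZFC3H1 and PABPN1 lay between -0.07 and 0.03.

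CNOT10 (ENSG00000182973), a subunit of the CCR4-NOT deadenylase, stood at 21.29, 21.29 and 21.95 FPKM in GFP-812 libraries and at 26.27, 25.21 and 24.64 FPKM in GFP libraries (log2 fold change -0.23, SE 0.0485, edgeR adjusted p = 0.00223). DCP1A (ENSG00000272886), an activator of decapping, stood at 21.35, 19.33 and 20.65 FPKM and at 24.57, 24.96 and 22.76 FPKM (log2 fold change -0.23, SE 0.048, edgeR adjusted p = 0.002). Neither gene's groups overlapped. DCP1A was at -0.18 without GFP-812 replicate 2 (adjusted p = 0.0987), and limma on log2(FPKM + 1) passed neither gene (adjusted p = 0.197 for CNOT10 and 0.213 for DCP1A). The other 12 genes of deadenylation and the other 9 of decapping did not pass. All 10 decapping genes had fitted values below 0 (median -0.08), beside 8 of 13 deadenylation genes and 48.2% of all genes tested. Among pre-rRNA trimming partners 4 of 8 lay below 0, and among the other exonucleases 4 of 7. The direction of a list was not tested.

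The cofactors that bind the nuclear exosome did not pass. MTREX, the helicase that feeds RNA into the barrel, stood at 29.54, 29.95 and 29.29 FPKM in GFP-812 libraries and at 34.39, 32.49 and 30.88 FPKM in GFP libraries. The groups did not overlap, and the log2 fold change was -0.13 (SE 0.0437, 95% interval -0.21 to -0.04, edgeR adjusted p = 0.095). MTREX passed without GFP replicate 3 (-0.16, adjusted p = 0.00539) and with total-count scaling (-0.14, adjusted p = 0.0488), and it was at -0.08 without GFP replicate 1 (adjusted p = 0.486). MPHOSPH6, another of these cofactors, stood at 27.03, 26.89 and 26.54 FPKM against 26.02, 23.15 and 25.61 FPKM, without overlap (log2 fold change 0.12, edgeR adjusted p = 0.339). Its log2 fold change was 0.06 without GFP replicate 2. C1D, the third cofactor, did not pass either.

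Partners of pre-rRNA trimming, the cytoplasmic SKI complex and the other exonucleases also gave no call, where 3.84% of all genes tested were called. A count of 0 in lists this small is near that share and is not a result particular to them. Of 8 pre-rRNA trimming partners 0 passed, with a median log2 fold change of -0.04. The smallest p-values there were those of XRN2, the nuclear nuclease that degrades from the 5′ end, at -0.09 (edgeR adjusted p = 0.28), and NOL9, a kinase of spacer processing, at -0.11 (0.337). Of 4 SKI genes 0 passed, and SKIC3 and SKIC8 were at -0.09 and 0.08 (edgeR adjusted p = 0.321 and 0.549). Of 7 other exonucleases 0 passed, with XRN1, the cytoplasmic counterpart of XRN2, at -0.15 (edgeR adjusted p = 0.104) and TOE1, a deadenylase of small nuclear RNA, at -0.20 (0.274). Without GFP replicate 3, SKIC3 and XRN1 passed at -0.14 and -0.17 (adjusted p = 0.0407 and 0.0248), whereas leaving out replicate 2 of GFP put them at -0.06 and -0.10 (adjusted p = 0.601 and 0.402). SKIC8 was at 0.02 when replicate 1 of GFP-812 was left out (adjusted p = 0.954). The count of 4 fallen genes stands beside 647 calls over all genes. It was 11 when replicate 3 of GFP was left out (1317 calls over all genes), 2 when replicate 2 of GFP-812 was (209 calls) and 2 when replicate 2 of GFP was (414 calls). With limma on log2(FPKM + 1) it was 0, with 4 calls over all genes, and CNOT10 and DCP1A were still at -0.23 and -0.23.

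**Figure D4:**
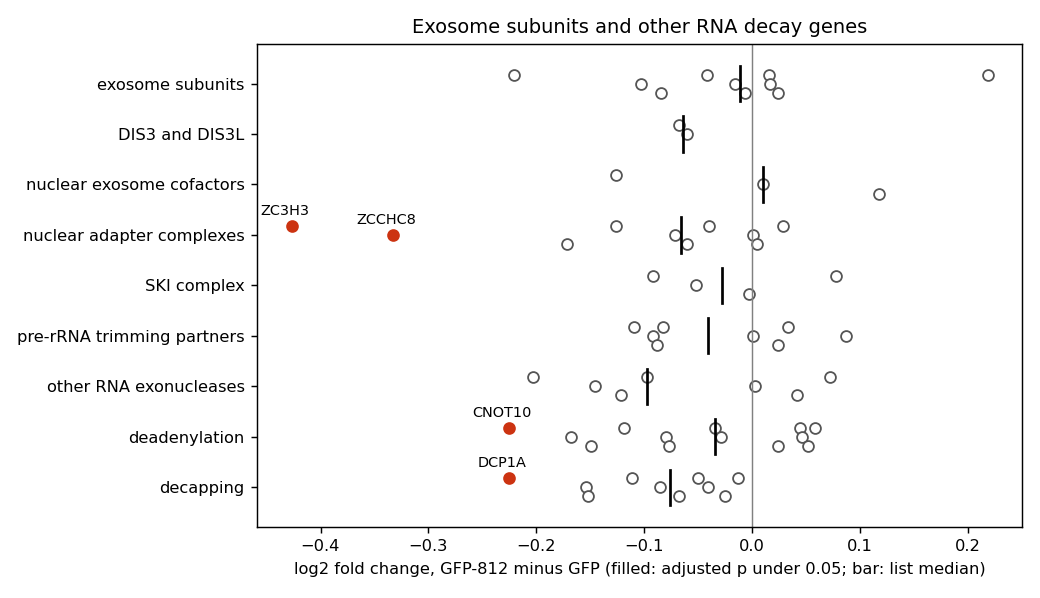
Fitted log2 fold change (GFP-812 minus GFP, horizontal axis) of each gene in the exosome and RNA decay lists; filled red points have an edgeR adjusted p under 0.05 and black bars are list medians. The 4 filled points, all below 0, lie outside the exosome itself.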

How the data were processed

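Per the labels' protocols, poly(A) RNA was selected on oligo(dT) beads, fragmented and primed at random. The submitters' processing notes name HISAT2 2.2.1 and HTSeq 0.6.1, with cutadapt 1.9.1 and FastQC 0.10.1, and the build hg38. Neither annotation release nor strand setting is stated there. The authors deposited raw counts per gene and FPKM per library. Dividing counts by the exonic size and the library total returned 100% of the FPKM within 0.0051.

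Groups and replicate numbers came from the sample titles. No label says that replicates were separate cultures, so p-values measure the spread between libraries, which may be technical. Within-group library pairs differed by more than counting noise (chi-square per degree of freedom 2.13 to 4.03). Across all tested genes, edgeR 4.0.16 (R 4.3.3; filterByExpr, TMM, quasi-likelihood, group as the single term) gave 2-sided p-values, adjusted by Benjamini-Hochberg at 0.05; standard errors and 95% intervals came from its F statistic. The code was tested on simulated data. Alternatives used DESeq2 1.42.0, limma 3.58.1 and other scalings and filters. Named genes are the 10 members, DIS3, DIS3L, NEK1, overlapping genes and, from each other list, the called genes or else the 2 with the smallest p; C1D and the adapter genes that did not pass were named after their values were seen. SKIC2, SKIC3 and SKIC8 were matched by older symbols. Members and lists were chosen with earlier results of these data known.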

Additional observations from a re-analysis of the deposited data

How the results depend on the processing

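The count of 0 exosome genes called held under all 16 alternatives (scaling, filter, test, pseudocount, replicate block and leaving out each library). The smallest member adjusted p was 0.0681, by edgeR without GFP replicate 3. DESeq2 gave an adjusted p to only 7 of the 10. Of 157 member values, 145 kept their direction and 12 changed sign, all of members within 0.05 of 0. EXOSC10 was at 0.001332 with a minimum mean FPKM of 1. Without single libraries EXOSC10 ranged from -0.0328 to 0.00881, EXOSC2 from -0.00276 to 0.0399, EXOSC3 from -0.042 to 0.00829, EXOSC5 from -0.144 to 0.0654 and EXOSC8 from -0.0168 to 0.0983; the cause was not tested. The 4 fallen decay genes numbered 0 with limma on log2(FPKM + 1) or log2(FPKM + 0.1), each of which called 4 of 12984 genes in all, with CNOT10 at -0.23 and -0.24 and DCP1A at -0.23 and -0.24. They numbered 2 to 11 without single libraries, where 209 to 1317 genes were called in all; the cause was not tested. The ratio of the highest to the lowest subunit level was 11.5 with the principal transcript length, an alternative chosen after seeing the data, because that length differs from the table's. The number of members whose groups do not overlap, an alternative also chosen after seeing the data, was 0 to 3 of 10 without single libraries, where 28.2% to 34.4% of all genes tested do not overlap. NEK1 kept its call at a log2 fold change of 6.74 to 7.13. With the replicate number as a block, edgeR called 0 members and 4 other decay genes, and 777 against 647 over all genes. Same-numbered libraries did not deviate together (correlations 0.0318, -0.0102 and 0.00614), and only GFP-812 replicate 1 correlated best with its own number, so the numbers were not taken as pairs. Depth limits EXOSC4 and EXOSC5, with 75 to 213 counts per library.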
